A study of Mus musculus with 12 samples.

Results

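The aryl hydrocarbon receptor (AHR) pathway was followed through 8 genes in lung lymphatic endothelial cells (LECs) of mice exposed to cigarette smoke (CS). The genes were Ahr, Arnt, Ahrr, Tiparp, Cyp1a1, Cyp1a2, Cyp1b1 and Aldh3a1, found by symbol among the 52636 gene identifiers of the count tables through the GENCODE M21 annotation. They are the receptor, its partner and textbook targets. LECs had been sorted from Prox1-EGFP mice, in which the Prox1 promoter drives EGFP, as live lineage- and EPCAM-negative, CD31-positive, EGFP-positive cells. Poly(A) RNA was sequenced in 12 libraries. Acute exposure lasted 8 weeks, with 2 CS libraries (1 female, 1 male) and 2 room air (RA) libraries (1 female, 1 male). Chronic exposure lasted 24 weeks or more, with 5 CS libraries (1 female, 4 male) and 3 RA libraries (1 female, 2 male), and the labels call these mice aged. The labels give 8 weeks as the age of the acute mice. In the methods it is the length of exposure, a conflict left unresolved here, and exposure times follow the methods. All mice carried the reporter, smoke was given by whole-body exposure, and RA mice were age-matched. Acute libraries were pooled from several mice and chronic libraries were not, so that pooling and exposure time cannot be told apart.

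AHR is a cytoplasmic receptor for planar aromatic compounds, among them the polycyclic hydrocarbons of smoke. After binding a ligand it enters the nucleus, pairs with ARNT and binds a short DNA core, GCGTG, in the xenobiotic response elements of its targets. The cytochrome P450 genes Cyp1a1, Cyp1a2 and Cyp1b1 encode enzymes that oxidise these compounds, and Cyp1a1 is the usual readout of the receptor. Aldh3a1 encodes an aldehyde dehydrogenase, while AHRR and TIPARP are products of AHR targets that repress the receptor in turn.

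The stretch before the start of the genes was searched for this core because the core is what the receptor with ARNT binds. RefSeq promoters on GRCm38.p6 were matched for 6 of the 8 genes, and the 250 bases before each start were read on both strands for GCGTG. The 3 windows shown are those of Cyp1a1, the 1 target that passed the test, of Ahrr, with the most cores among the 6, and of Tiparp, whose groups separated under chronic smoke only. Each runs 5′ to 3′ on the strand of the gene, and capitals mark the core, written CACGC where it lies on the opposite strand. The windows were chr9:57697363-57697612 on the plus strand for Cyp1a1, chr13:74292332-74292581 on the minus strand for Ahrr and chr3:65528197-65528446 on the plus strand for Tiparp. Cyp1a1 has a pair of annotated starts, and the window lies before the RefSeq one, 9685 bases inside the span of the gene given below.
Cyp1a1: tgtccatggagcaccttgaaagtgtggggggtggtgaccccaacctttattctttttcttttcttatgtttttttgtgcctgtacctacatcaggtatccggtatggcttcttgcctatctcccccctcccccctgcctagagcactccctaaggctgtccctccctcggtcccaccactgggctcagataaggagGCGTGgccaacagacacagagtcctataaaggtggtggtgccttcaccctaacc
Ahrr: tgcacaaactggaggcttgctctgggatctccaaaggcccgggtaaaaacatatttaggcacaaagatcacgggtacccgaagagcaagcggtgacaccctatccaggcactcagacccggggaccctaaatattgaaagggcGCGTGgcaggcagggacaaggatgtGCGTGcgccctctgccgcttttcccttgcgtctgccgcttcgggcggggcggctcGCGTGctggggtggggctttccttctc
Tiparp: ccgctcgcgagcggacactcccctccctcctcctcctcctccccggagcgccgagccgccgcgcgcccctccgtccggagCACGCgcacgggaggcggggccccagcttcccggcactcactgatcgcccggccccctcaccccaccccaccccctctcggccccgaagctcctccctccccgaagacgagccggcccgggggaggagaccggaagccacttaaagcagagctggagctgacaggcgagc
The Cyp1a1 window held 1 core, 54 to 50 bases before the start. The Ahrr window held 3 cores, the farthest beginning 107 bases and the nearest 27 bases before the start. Tiparp had 1 core on the opposite strand beginning 170 bases before the start. Arnt and Cyp1b1 each had 1 as well, and the letters were not in the Cyp1a2 window. Of 32851 mouse windows of the same length, 28.2% held at least 1 core and 2.77% held at least 3. A match of letters is a description of the window and not a binding site, and bases outside the windows were not read.

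Library totals ran from 18821438 to 56998590 counts, so that 3 counts, taken as the floor of detection, were worth 0.0507 to 0.158 CPM (counts scaled to a common library size with TMM factors). Prox1, the LEC transcription factor, was present at 1042 CPM or more in every library, and its lowest values were those of the acute CS libraries, 1042 CPM in the female and 1262 CPM in the male. The summed level of 8 lymphatic markers was 6048 to 9282 CPM in acute CS against 13980 to 15700 CPM in acute RA. Over the same libraries the sum of 12 blood endothelial markers was 8921 to 11320 CPM against 5066 to 6145 CPM, that of 8 leukocyte markers 1641 to 2308 CPM against 254 to 257 CPM, that of 10 alveolar macrophage markers 2517 to 2634 CPM against 772 to 897 CPM with 9 of the 10 higher in both CS libraries, and that of 11 mesenchymal markers 873 to 1326 CPM against 696 to 764 CPM. Some sums were held down by abundant genes that did not rise. In acute RA, Kdr and Plvap were at 2273 and 2127 CPM (F) and 2522 and 3053 CPM (M), most of the blood endothelial sum. In acute CS they were at 2128 and 2719 CPM (F) and 1536 and 3006 CPM (M). The other 10 blood endothelial genes were higher in both CS libraries. Mrc1 of the macrophage list and Npnt of the mesenchymal list were lower in both, and the other 10 mesenchymal genes higher. The acute CS female library stood apart, with 6824 CPM of alveolar epithelial and 1187 CPM of neutrophil markers. Airway epithelial markers were at 2613 CPM in it and 1184 CPM in the acute RA female against 16.5 and 3.93 CPM in the acute males, and the acute CS male had 698 CPM of erythroid markers. In bulk RNA, fewer cells of a type and less RNA per cell cannot be told apart, and the part of other cells in the results below was not tested. Differences between groups were tested with edgeR's quasi-likelihood test over 21440 genes, with Benjamini-Hochberg adjustment over all of them and a threshold of 0.05.

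All 8 genes passed the filter on low counts, Ahrr, Cyp1a2 and Aldh3a1 through a few libraries only. In acute CS against acute RA, 1 of the 8 passed the test, Cyp1a1, and it was higher, where 3.47% of all genes passed in either direction and 2.75% were higher. In chronic CS against chronic RA none of the 8 passed with edgeR, as 0% of all genes did, although 3 of the 8 and 10.9% of all genes had an unadjusted p under 0.05. DESeq2 called 1 of the 8 there, Tiparp, and 2.44% of all genes. In the smoke difference averaged over both time points 1 of the 8 passed, again Cyp1a1 as a higher gene, where 4.1% of all genes passed and 3.13% were higher. DESeq2 called 2 of the 8, Ahr and Cyp1a1, in each of the acute and averaged comparisons, and 8.98% and 9.67% of all genes.

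**Figure D1:**
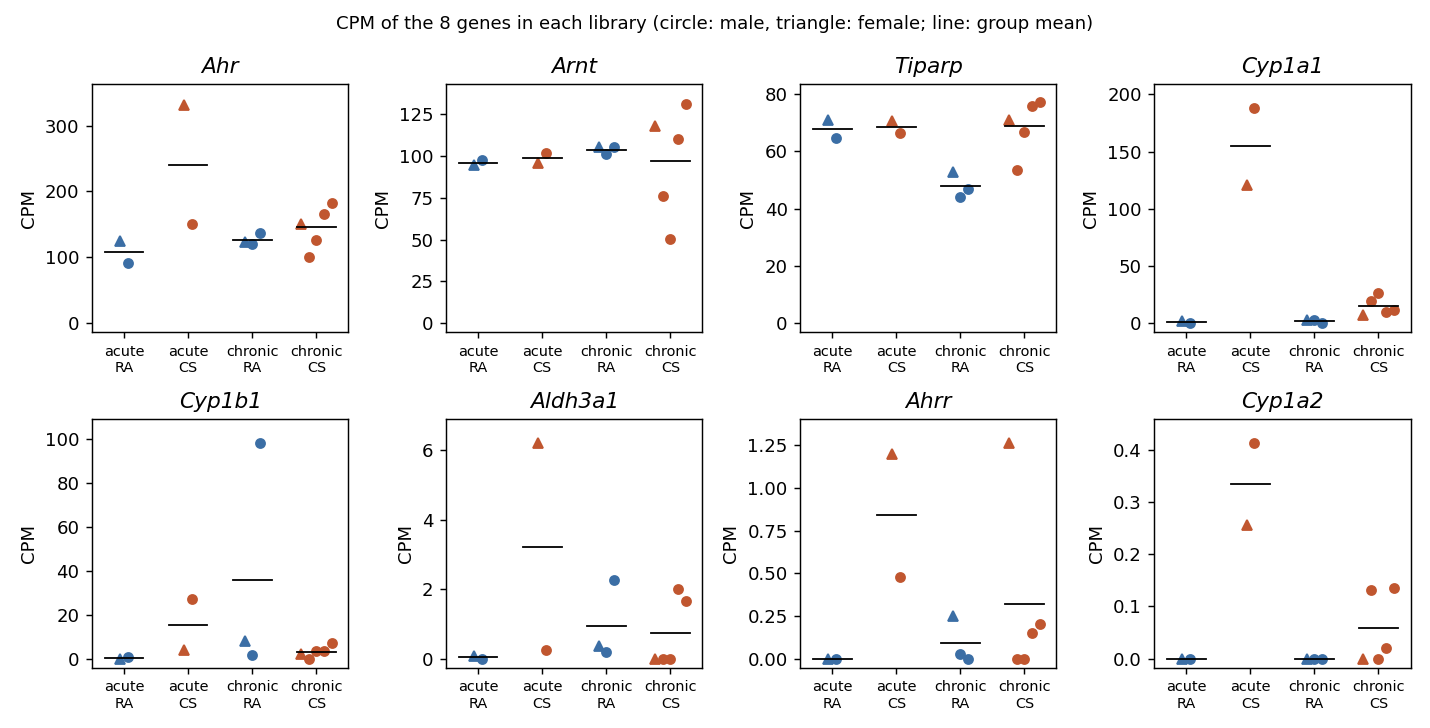
CPM (TMM-scaled, linear axes that differ between panels) of the 8 genes in each of the 12 libraries, by group, with triangles for female and circles for male libraries and a line at the group mean. Cyp1a1 lies at 121 and 188 CPM in acute CS, at 7.04 to 26.9 CPM in chronic CS and at 3.23 CPM or less in RA, and the high Cyp1b1 point in chronic RA is 1 library at 97.9 CPM.

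The receptor itself, Ahr (chr12:35497974-35535038, minus strand, GRCm38), was measured at 125 CPM in the female and 91.5 CPM in the male acute RA library. In acute CS it stood at 331 CPM in the female and 150 CPM in the male. Both CS libraries were above both RA libraries, and the female CS library was the highest of all 12. Chronic RA libraries had 124 CPM (F), 120 CPM (M1) and 137 CPM (M2), and chronic CS libraries 150 CPM (F), 101 CPM (M1), 127 CPM (M2), 166 CPM (M3) and 183 CPM (M4), so that the chronic groups overlapped. The acute log2 fold change was 1.15 (SE 0.35), which did not pass edgeR's test (adjusted p = 0.11), and the chronic one was 0.20 (SE 0.25, adjusted p = 0.808). Averaged over both time points it was 0.67 (SE 0.21, adjusted p = 0.119), with an exact two-sided permutation p of 0.0714 over the libraries. The call turned on the method and on 1 library. DESeq2 gave an acute adjusted p of 0.0153, and edgeR without the acute CS male gave 0.0164 at a log2 fold change of 1.61. Without the acute CS female the acute log2 fold change was 0.47 (edgeR adjusted p = 0.716). A lincRNA, Gm48236, overlaps Ahr, and the kit does not mark strand, so that reads of the pair cannot be told apart.

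Arnt (chr3:95434388-95497240, plus strand), the partner of AHR and of the hypoxia-inducible factors, did not pass the test in any comparison. It was measured at 94.4 and 97.6 CPM in acute RA (F and M) and 96.0 and 102 CPM in acute CS. Chronic RA libraries had 105, 101 and 105 CPM (F, M1 and M2) and chronic CS libraries 118, 75.8, 50.3, 110 and 131 CPM (F, M1, M2, M3 and M4). Spread was widest in chronic CS, whose libraries lay on both sides of the RA libraries. The log2 fold change was 0.05 (SE 0.34) in acute and -0.10 (SE 0.25) in chronic exposure, with edgeR adjusted p of 0.982 and 0.913. The pseudogene Gm42672 overlaps Arnt.

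Tiparp (chr3:65528410-65555518, plus strand), which encodes a mono-ADP-ribosyltransferase that acts on AHR, separated by smoke in chronic exposure and not in acute exposure. In acute RA it was at 71.0 CPM (F) and 64.7 CPM (M) and in acute CS at 70.6 CPM (F) and 66.2 CPM (M). Chronic RA libraries were at 52.7, 44.2 and 47.0 CPM (F, M1 and M2), below both acute RA libraries, an order that 17.0% of all genes shared. Chronic CS libraries were at 71.0, 53.4, 66.7, 75.7 and 77.2 CPM (F, M1, M2, M3 and M4), all above the 3 chronic RA libraries, if narrowly for M1 against the RA female. Group means in chronic exposure were 68.8 ± 9.55 CPM (SD, n = 5) in CS and 48.0 ± 4.33 CPM (SD, n = 3) in RA. The acute log2 fold change was 0.01 (SE 0.18, edgeR adjusted p = 0.994), while the chronic one was 0.52 (SE 0.13) and did not pass edgeR's test (unadjusted p = 0.00236, adjusted p = 0.265). The exact two-sided permutation p of the chronic difference was 0.0357, the smallest this design allows, and DESeq2 gave an adjusted p of 0.00627. Chronic RA against acute RA gave a log2 fold change of -0.50 (SE 0.16, edgeR adjusted p = 0.554), and the acute less the chronic difference gave -0.51 (SE 0.22, edgeR adjusted p = 0.399). The marker sums of 3 other cell types were higher in every chronic CS library than in every chronic RA library. The alveolar epithelial sum was 977 to 4854 CPM in CS against 266 to 505 CPM in RA, with 9 of its 10 genes higher in every CS library. The airway epithelial sum was 82.6 to 653 CPM against 4.61 to 48.9 CPM (3 of 8 genes higher), and the neutrophil sum 27.4 to 159 CPM against 15.3 to 20.1 CPM (5 of 7 genes higher). The mesenchymal sum overlapped, at 401 to 659 CPM against 367 to 403 CPM, with 6 of 11 genes higher in every CS library. Npnt, its largest gene in every chronic library, was at 147 to 289 CPM in CS against 229 to 273 CPM in RA. The blood endothelial sum was lower, at 5153 to 5724 CPM against 5884 to 6116 CPM. Kdr and Plvap made up most of it, and 2 of its 12 genes were higher in every CS library and 0 lower. The part of these cells was not tested. A pseudogene, 4931440P22Rik, overlaps Tiparp.

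Ahrr (chr13:74211118-74292331, minus strand), the AHR repressor, was low in every library. No counts were found in either acute RA library, against 61 counts (1.20 CPM) in the female and 22 counts (0.477 CPM) in the male acute CS library. Set against a floor of 3 counts over the RA group, acute CS was 31.9-fold higher. Without the female CS library, which held most of the counts, it was 17.8-fold higher. In chronic RA it had 8, 1 and 0 counts (F, M1 and M2), and in chronic CS 24, 0, 0, 7 and 9 counts (F, M1, M2, M3 and M4). The acute groups did not overlap and the chronic groups did, with the female library highest in each of the 3 groups that had counts. Neither difference passed edgeR's test, with adjusted p of 0.22 in acute and 0.749 in chronic exposure.

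Cyp1a1 (chr9:57687928-57703824, plus strand) gave the clearest separation. It was measured at 2.21 CPM (131 counts) in the female and 0 CPM in the male acute RA library, and at 121 CPM (6159 counts) in the female and 188 CPM (8687 counts) in the male acute CS library. Chronic RA libraries had 2.57 CPM (F), 3.23 CPM (M1) and 0.566 CPM (M2), and chronic CS libraries 7.04 CPM (F), 19.2 CPM (M1), 26.9 CPM (M2), 9.89 CPM (M3) and 11.7 CPM (M4). Chronic CS M1 and M2, the highest of the 5, stood apart with lymphatic marker sums of 13860 and 14210 CPM. The other chronic libraries had 18890 CPM or more. Neutrophil sums were 124 and 159 CPM in M1 and M2 and 118 CPM in M3, and the part of these was not tested. Chronic CS F, M3 and M4 were above all RA libraries as well. All 7 CS libraries were above all 5 RA libraries, which held for Cyp1a1 alone among the 8 and for 0.718% of all genes.

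Group means of Cyp1a1 were 155 ± 47.8 CPM (SD, n = 2) after acute smoke and 1.11 ± 1.57 CPM (SD, n = 2) in its controls. The fitted acute log2 fold change was 7.11 (SE 1.41), or 138-fold, and passed edgeR's test (adjusted p = 0.0212). By size it was 370th of the 21440 genes. In chronic exposure the means were 14.9 ± 8.05 CPM (SD, n = 5) in CS and 2.12 ± 1.39 CPM (SD, n = 3) in RA. The chronic log2 fold change was 2.81 (SE 0.92), or 7.03-fold, with an edgeR adjusted p of 0.347 and an exact two-sided permutation p of 0.0357. Averaged over both time points the log2 fold change was 4.96 (SE 0.85, edgeR adjusted p = 0.0102), and the exact permutation p of 0.00595 was the smallest that 336 arrangements within time points allow. The acute less the chronic difference was 4.29 (SE 1.44) on the log2 scale, which did not pass edgeR's test (unadjusted p = 0.0125, adjusted p = 0.25), so that a smaller response after longer exposure was not shown. Chronic RA against acute RA gave 0.92 (SE 1.09, edgeR adjusted p = 0.921).

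The acute Cyp1a1 call rested on few libraries. It was lost when only the acute libraries were fitted (edgeR adjusted p = 0.122), without the acute RA male (0.0898) and without the acute CS female (0.0642), with log2 fold changes of 6.09 to 7.40. Without the acute RA female the remaining control was at 0, and the fitted log2 fold change of 15.5 is then no measure of size. The averaged call held in each of the 12 fits that left out 1 library, with log2 fold changes from 4.45 to 9.15, the highest again without the acute RA female.

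**Figure D2:**
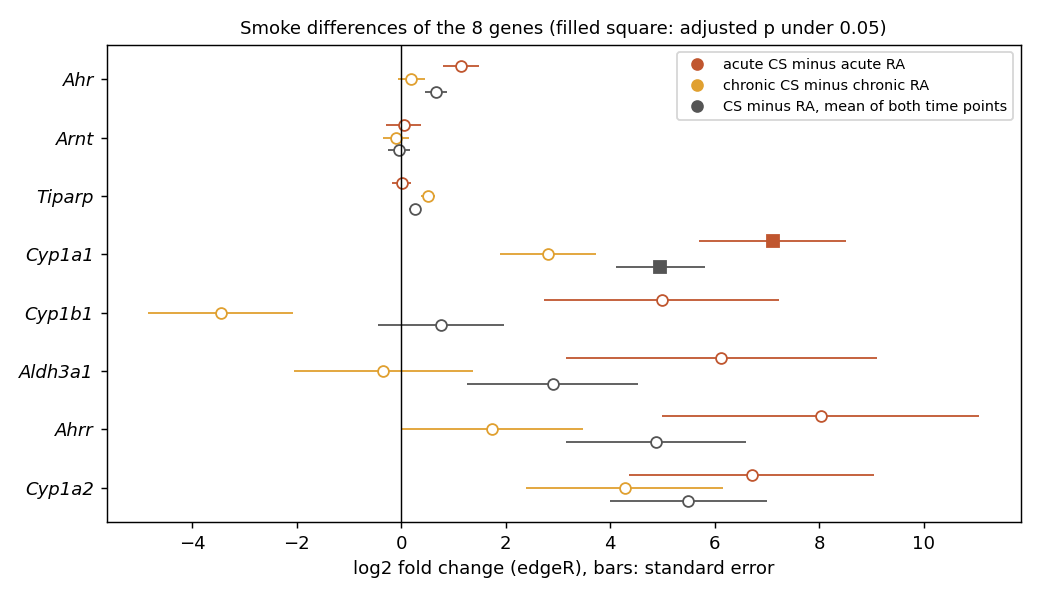
Fitted log2 fold changes (x axis, with standard errors as bars) of the 8 genes for acute, chronic and averaged CS against RA, with filled squares where edgeR's adjusted p was under 0.05. The squares are the acute (7.11) and averaged (4.96) values of Cyp1a1, and the acute and averaged values of Ahrr and all 3 values of Cyp1a2 rest on control groups with no counts and give no size.

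Cyp1a2 (chr9:57676937-57683703, minus strand), best known as a liver enzyme, lies on the opposite strand, 4224 bases from the first annotated start of Cyp1a1. It had no counts in any of the 5 RA libraries. Acute CS libraries had 13 counts (F, 0.255 CPM) and 19 counts (M, 0.412 CPM), 12.3-fold above a floor of 3 counts over the RA group. Chronic CS libraries had 0, 3, 0, 1 and 6 counts (F, M1, M2, M3 and M4), and only M4 was above 3. As a group they were 2.13-fold above that floor, or 1.19-fold without M4 (4 counts), which gives no size. The edgeR adjusted p was 0.208 in acute and 0.464 in chronic exposure, and 0.0964 for the average. Transcripts of Cyp1a1 and Cyp1a2 share 94 stretches of 50 bases, 4.79% of those of Cyp1a2.

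Cyp1b1 (chr17:79701537-79715061, minus strand), the family member found mainly outside the liver, varied widely between libraries of 1 group. Acute RA libraries had 0 CPM (F) and 0.984 CPM (M), and acute CS libraries 3.81 CPM (F) and 27.3 CPM (M). Chronic RA libraries had 8.02 CPM (F), 1.73 CPM (M1) and 97.9 CPM (M2), and chronic CS libraries 2.26, 0, 3.66, 3.30 and 6.99 CPM (F, M1, M2, M3 and M4). Acute CS lay above acute RA, and in chronic exposure the male RA library M2 lay far above all other libraries. The log2 fold change was 4.99 (SE 2.25, edgeR adjusted p = 0.313) in acute and -3.45 (SE 1.39, edgeR adjusted p = 0.416) in chronic exposure. Without the RA library M2 the chronic value was -0.57. The acute value was 2.96 without the CS male, and without the RA male, which leaves a control at 0, it is no measure of size (12.17).

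Aldh3a1 (chr11:61207537-61218421, plus strand) was low and uneven. It had 5 and 0 counts in acute RA (F and M) against 316 and 12 counts in acute CS (F and M), or 6.20 and 0.260 CPM. Chronic RA libraries had 12, 7 and 76 counts (F, M1 and M2) and chronic CS libraries 0, 0, 0, 94 and 73 counts (F, M1, M2, M3 and M4). Acute CS was above acute RA in both libraries, the larger value lying in the female library with the high epithelial markers, and the chronic groups overlapped. The edgeR adjusted p was 0.359 in acute exposure at a log2 fold change of 6.13 (SE 2.97), and 0.963 in chronic exposure at -0.34 (SE 1.71). The acute value was 2.52 without the CS female, and without the RA female, which leaves a control at 0, it is no measure of size (9.90).

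Counted over the 8 genes, 6 were higher in both acute CS libraries than in both acute RA libraries (Ahr, Ahrr and the 4 enzyme genes), where 27.4% of all genes were. Ahrr and Cyp1a2 had no counts in acute RA and could not have been lower, and the filter kept Cyp1a2 through its acute CS libraries, so that nothing is read from that count. In chronic exposure 2 were higher in every CS library, Cyp1a1 and Tiparp, where 3.92% of all genes were. Since the comparison of RA groups called 0% of genes with edgeR (7.01% of genes and 2 of the 8 at an unadjusted p under 0.05, 1.18% of genes and 0 of the 8 with DESeq2), no change with age in room air was called for any of the 8. The difference between the acute and the chronic response passed for 0.452% of genes and for 0 of the 8 with edgeR, with 4 of the 8 and 11.9% of genes at an unadjusted p under 0.05 and 0 of the 8 and 4.27% of genes with DESeq2. Cyp1a2, with no counts in RA, had no usable estimate in this comparison or in that of the RA groups.

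Per exon length the order of the genes changed with acute smoke. In mean FPKM, acute RA ran from Ahr at 17.6 ± 3.83 over Tiparp at 15.6 ± 1.02 (SD, n = 2) to Arnt, at 11.8 and 12.2 in its libraries, with the means of all 5 other genes at 0.397 or less, and the libraries of Ahr and Tiparp overlapped. In acute CS, Cyp1a1 at 55.5 ± 17.1 FPKM came before Ahr at 39.0 ± 20.7 FPKM (SD, n = 2), a pair whose libraries overlapped. In chronic CS the order was Ahr at 23.6 ± 5.28, Tiparp at 15.8 ± 2.19, Arnt at 12.1 ± 4.13 and Cyp1a1 at 5.36 ± 2.89 FPKM (SD, n = 5). The ranges of neighbours overlapped over the libraries, although within each of the 5 libraries Ahr was above Tiparp and Tiparp above Arnt, and Arnt was above Cyp1a1 in 4 of the 5.

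Genes around the receptor were described by 6 lists. Among 5 genes of the chaperone complex that holds AHR in the cytoplasm, edgeR called 0 in the acute, chronic and averaged comparisons, with 0 at an unadjusted p under 0.05 and 0 with DESeq2. Among 14 coregulators edgeR called 0 as well, with 5 at an unadjusted p under 0.05 and 4 by DESeq2 in chronic exposure (10.9% and 2.44% of all genes). Relb, an NF-kB subunit that can pair with AHR, was at 123, 126 and 109 CPM in chronic RA and at 67.7, 84.7, 49.4, 63.5 and 74.6 CPM in chronic CS. Every chronic CS library was below every chronic RA library, as for 5.49% of all genes, at a log2 fold change of -0.81 (SE 0.18, edgeR adjusted p = 0.227), and DESeq2 gave an adjusted p of 0.00588. Among 9 tested tryptophan and kynurenine enzymes, which make natural AHR ligands, edgeR, DESeq2 and the unadjusted p called 0 in each of these comparisons. The smallest p there was that of Kmo, at 0.0804 in acute exposure, with 8.52 CPM in the female and 0.694 CPM in the male CS library.

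Of 10 tested bHLH-PAS factors, the family of AHR and ARNT, 1 rose in acute exposure and 0 fell, where 2.75% of all genes rose. It was Epas1, the hypoxia-inducible factor HIF-2 alpha, at 124 and 95.3 CPM in acute RA and 998 and 464 CPM in acute CS (log2 fold change 2.74, SE 0.39, edgeR adjusted p = 0.0057). With 1 library left out this value ran from 2.09 to 3.19. The 3 chronic RA libraries were at 152 to 160 CPM and the 5 chronic CS libraries at 141 to 279 CPM, which overlapped. The acute call was lost without the acute RA female (adjusted p = 0.0515) or male (0.0919) and with only the acute libraries fitted (0.0844). Epas1 is abundant in blood endothelium, whose markers were higher in acute CS for 10 of 12 genes, and the part of those cells was not tested.

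Of 21 tested further genes known to respond to AHR, 1 rose in acute exposure, Htatip2, from 5.83 and 2.63 CPM in RA to 21.8 and 20.7 CPM in CS (log2 fold change 2.33, SE 0.50, edgeR adjusted p = 0.0272). By edgeR 2.75% of all genes were higher, and DESeq2 called 4 of the 21 in acute and 7 in averaged exposure, where it called 8.98% and 9.67% of all genes. That call was lost without any single acute library (adjusted p 0.0611 to 0.265). In chronic exposure edgeR called 0 of the 21, with 5 at an unadjusted p under 0.05 and 1 by DESeq2 (10.9% and 2.44% of all genes). The median log2 fold change of the list was 0.82 in acute and 0.29 in chronic exposure, beside 0.04 and 0.01 over all genes.

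Of the 17 partners in xenobiotic metabolism, edgeR called 6 higher and 0 lower in acute exposure, where 2.75% of all genes were higher, and 7 higher and 0 lower in the average, where 3.13% were. Fmo1, a flavin monooxygenase, was at 67.7 and 57.7 CPM in acute RA, 757 and 385 CPM in acute CS, 73.4 to 77.9 CPM in chronic RA and 101 to 192 CPM in chronic CS. Its CS libraries lay above its RA libraries at both time points, as for 27.4% of all genes in acute and 3.92% in chronic exposure. The log2 fold changes were 3.19 (SE 0.34, edgeR adjusted p = 0.00258) in acute and 0.88 (SE 0.24, edgeR adjusted p = 0.288) in chronic exposure. The acute call was lost with only the acute libraries fitted (adjusted p = 0.0626). Gstm1, a glutathione transferase, was at 111 and 126 CPM in acute RA and 494 and 441 CPM in acute CS (log2 fold change 1.98, SE 0.24, edgeR adjusted p = 0.004), and its chronic log2 fold change was 0.68 (SE 0.18, adjusted p = 0.265). Cyp4b1, a lung P450, rose in acute exposure at 2.21 (adjusted p = 0.0057) and had a chronic value of -0.40 (adjusted p = 0.519). Fmo2 and Gstm2 rose in acute exposure as well, at 1.94 and 2.78, and Mgst1 was the sixth. In chronic exposure edgeR called 0 of the 17, with 6 at an unadjusted p under 0.05 and 4 by DESeq2 (10.9% and 2.44% of all genes). With only the acute libraries fitted, Cyp4b1 and Fmo2 lost the acute call, like Fmo1 (edgeR adjusted p = 0.115 and 0.124). With 1 library left out, acute log2 fold changes ran from 2.62 to 3.59 for Fmo1 and 1.89 to 2.06 for Gstm1. They ran from 1.59 to 2.64 for Cyp4b1, 1.41 to 2.71 for Fmo2 and 2.57 to 2.97 for Gstm2. Each of these 5 genes lost its acute call in at least 1 fit without 1 acute library, which leaves 1 library in a group. Some lost the averaged call there too. The leukocyte, lymphoid, alveolar macrophage, mesenchymal and blood endothelial marker sums stood higher in both acute CS libraries, and their part was not tested.

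**Figure D3:**
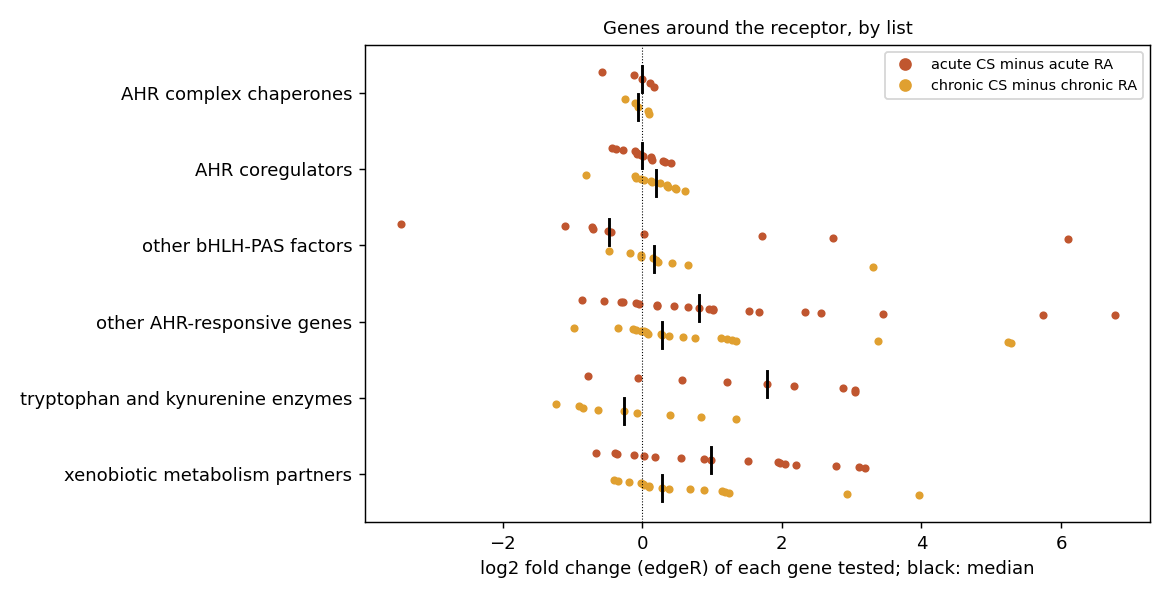
Fitted log2 fold changes (x axis) of each tested gene in the 6 lists around the receptor, in acute and chronic CS against RA, with a black bar at the median of each list. The median of the xenobiotic metabolism list is 0.98 in acute and 0.28 in chronic exposure, and that of the chaperones is near 0 in both.

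The genes most like each of the 8 across the 12 libraries were read from Pearson's r of log2 CPM among 14695 genes, as a description in which group, depth and cell makeup are shared. For Cyp1a1 these were Gda (guanine deaminase, r = 0.968), Atoh8 (a bHLH factor, r = 0.957) and Lum (the proteoglycan lumican, r = 0.939). Lum is one of the mesenchymal markers, at 13.7 and 29.4 CPM in acute CS and 1.74 and 0.322 CPM in acute RA, and whether mesenchymal RNA had a part in the Cyp1a1 values was not tested. For Tiparp they were Itga8 (r = 0.93), Tcf21 (r = 0.918) and Kansl2-ps (r = 0.9). Tcf21, a mesenchymal transcription factor, was at 2.53 to 4.32 CPM in chronic RA and 8.41 to 19.8 CPM in chronic CS. Its chronic CS libraries were all above its chronic RA libraries, as for 3.92% of all genes.
For Ahr they were Rhpn2 (r = 0.944), Bpifb1 (r = 0.943) and Mef2d (r = 0.938), and for Arnt Prkacb (r = 0.97), Dym (r = 0.963) and Ap3m2 (r = 0.961). For Cyp1b1 the first was Rab40c (r = 0.933), for Aldh3a1 Sphk2 (r = 0.909), for Ahrr Ccng2 (r = 0.926) and for Cyp1a2 Ctnnbip1 (r = 0.945). The last 3 genes, Cyp1b1 and, in 1 library, Cyp1a1 had libraries with no counts, and such zeros weigh on r.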

How the data were processed

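RNA-seq read counts per Ensembl gene were deposited by the authors for 12 LEC libraries, without normalization. Per the labels and the study's methods, reads were checked with FastQC 0.11.9, trimmed with Skewer, aligned to GRCm38 with STAR and counted with its GeneCounts mode. Strand setting and annotation release are not given in the sources used here. Groups and sex came from the labels, exposure times from the study. Libraries of 1 group may share litter or sort day, so p-values measure the spread between these libraries.

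The counts were fitted with edgeR 4.0.16 in R 4.3.3 (filterByExpr, TMM, quasi-likelihood F-test, 1 mean per group, all 12 libraries in 1 fit) and DESeq2 1.42.0 as an alternative, and in Python 3.11.15 with pandas 2.3.3, scipy 1.17.1 and matplotlib 3.10.9. FPKM used the union of exons of GENCODE M21. Exact two-sided permutation tests, 32 in all and unadjusted, were run on log2 CPM with a prior count of 2, and cannot go below 0.333 for acute, 0.0357 for chronic and 0.2 for RA comparisons. CPM intervals were not computed, and floors cover counting error of the RA counts only, not of the CS counts. The scripts were checked on simulated counts. Genes were named as the 8 members, up to 5 called genes per list (or the gene with the smallest p) and the 3 genes with the highest r per member at a mean of at least 1 CPM, and 1 gene named so is left out here. The members and lists were chosen with earlier results of these data known. Alternatives were scaling, filter, robust fit, sex, replicate block, groups fitted, DESeq2, each library left out and chronic CS libraries split by depth.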

Additional observations from a re-analysis of the deposited data

Results flagged for a closer look

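Cyp1b1 in the chronic CS libraries had 1 library far from the others. Chronic CS M1 had 0 counts while the other 4 had 2.26 to 6.99 CPM, and its gap on the log2 scale was 0.773 of the range of the group, above the 95% limit of 0.71 for 5 libraries. Of the 8 genes only this one was marked in that group, the only group large enough to be tested, and chance marks about 1 in 20 such groups.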

How the results depend on the processing

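Of 965 single-gene values recomputed under alternatives, 891 kept direction and side of the threshold, 44 lost a call, 11 gained one and 19 changed direction. The cause of these changes was not tested. The acute call of Cyp1a1 held in 7 of 11 alternatives and the averaged one in 19 of 20. DESeq2 called 2 of the 8 genes in acute, 1 in chronic and 2 in averaged exposure, and 9 list genes in chronic and 17 in averaged exposure, where it called 8.98%, 2.44% and 9.67% of all genes in the 3 comparisons. With only the acute libraries fitted, 0 of the 8 were called. The share of all genes called is not given for this fit, the fits without 1 library or the replicate block. Whether the 8 genes or the list genes moved differently from all genes in those fits was not tested. With chronic CS M3 and M4 only, 2 were called in the average (Cyp1a1, and Tiparp at an adjusted p of 0.0483). Leaving out 1 library gave 0 to 2 of the 8 called in acute and 1 to 2 in averaged exposure, and without the acute CS female 4 list genes in acute and 5 in averaged exposure (8 in each with all libraries), a count added after the data were seen, as was the block for the lists.

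A replicate block on shared labels of the libraries gave 0 of the 8 called in acute and in averaged exposure (Cyp1a1 adjusted p 0.137 and 0.104), 3 list genes in each, an Ahr chronic value of -0.03 and an Aldh3a1 averaged value of -0.99. Deviations of same-labelled libraries had r = 0.0693 in acute and -0.0419 to 0.0342 in chronic exposure. The acute value is the same for F and M, because deviations within so small a group mirror each other. Such r values cannot exclude a shared litter or sort day. Whether the labels pair the libraries was therefore not settled, and the calls lost with the block stand as a limit.

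Some directions turned. With chronic CS M3 and M4 only, Arnt was 0.21 in chronic, 0.13 in averaged and -0.17 in acute less chronic exposure, and Aldh3a1 was 0.95 in chronic exposure. With chronic CS F, M1 and M2 only, Aldh3a1 averaged was -1.04, against 2.90 with all libraries. Tiparp acute was -0.02 scaled by library size, -0.01 with no filter and 0.00 with only the acute libraries. With 1 library left out, Arnt ran from -0.23 to 0.07 (chronic), -0.09 to 0.06 (averaged) and -0.02 to 0.28 (acute less chronic), Tiparp acute from -0.09 to 0.08, Cyp1a1 in RA from -0.08 to 9.30, Cyp1b1 averaged from -0.25 to 4.36 and Aldh3a1 chronic from -1.13 to 1.38. Few counts limit Ahrr, Cyp1a2 and Aldh3a1, which had 3 counts or fewer in several libraries, of low and of high depth. The folds over the floor without 1 CS library were also added after the data were seen.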
